A study of Homo sapiens with 3 samples.

Results

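Replication origin calls were examined at 8 human genes, LMNB2, NCL, MKI67, DDX5, CEP95, HSP90AA1, PABPC1 and NFAT5, each with 10 kb on either side. These are loci that the study followed one by one by quantitative PCR or displayed as browser tracks. The calls came from short nascent strand sequencing (SNS-seq) of 3 replicates of untreated HCT116, an established human colorectal carcinoma cell line grown in RPMI medium. All 3 libraries belonged to 1 group, with no treatment, knockdown or mutant to compare them with. Members were all EPIC2 regions and MACS2 summits that fell inside the gene bounds given in the hg19 build or their flanks. The 8 genes formed 7 distinct intervals with a total length of 464.89 kb, because DDX5 and CEP95 lie head to head with starts 396 bases apart and their intervals share 19605 bases. Shared calls were counted once in any total. The intervals held 166 of the 247781 EPIC2 regions and 166 of the 442902 MACS2 summits on chromosomes 1 to 22 and X. By replicate these were 67, 34 and 65 EPIC2 regions and 79, 26 and 61 summits. The study designed its primer pairs with origin maps of the same cells at hand, so the presence of calls at these genes is not independent evidence that origins lie there.

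A replication origin is a place where the double helix is first opened for copying. In human cells the origin recognition complex, whose largest subunit is ORC1, loads the MCM helicase onto chromatin before S phase, and only a part of the loaded sites fires in a given cell. Human origins have no fixed sequence and are often found near active gene starts, in CpG-rich and G-rich DNA. SNS-seq isolates short DNA strands that still carry the RNA primer of replication at their 5' end, because lambda exonuclease digests DNA without such a primer. Separate kinds of call describe the sequenced strands: EPIC2 marks diffuse enriched regions on a grid of 200 bases, and MACS2 marks the single base at the top of a narrow peak.

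The genes have varied roles. LMNB2 encodes lamin B2 of the nuclear lamina, and a classical human origin has been mapped near its 3' end. NCL encodes nucleolin, an abundant nucleolar protein of ribosome production. MKI67 encodes Ki-67, the marker of dividing cells that coats mitotic chromosomes. DDX5 encodes a DEAD-box RNA helicase, and its neighbour CEP95 a centrosomal protein. HSP90AA1 encodes the stress-inducible form of the HSP90 chaperone, PABPC1 the main cytoplasmic poly(A)-binding protein, and NFAT5 the transcription factor of the response to osmotic stress. Primer pairs for genomic DNA are named for LMNB2, NCL, MKI67, CEP95 and HSP90 in the study's list, with the CEP95 series running into DDX5. PABPC1 and NFAT5 have none there, so the description as individually assayed genes holds for them only as loci that were displayed.

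The replicates differed in how much was called. Over the genome they held 124492, 44482 and 78820 EPIC2 regions and 218227, 63077 and 162176 summits, and replicate 2 was the sparsest in both. The number of reads behind the calls is unknown, so a missing call in replicate 2 was not read as an absent origin. With 3 replicates and no contrast, the smallest 2-sided p of an exact sign test is 0.25, so values are given as descriptions, with the mean, the SD and the same quantity over the genome. The labels do not say whether the replicates were separate cultures.

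The annotated starts of the genes lay in called regions in most replicates. An EPIC2 region covered the start of 8, 6 and 7 of the 8 genes in replicates 1, 2 and 3, a mean of 7 ± 1 (SD, n = 3). EPIC2 regions covered 8.99%, 4.66% and 11.0% of all bases between the first and the last call of the chromosomes in the same replicates. The starts of MKI67, DDX5, CEP95, PABPC1 and NFAT5 were covered in all 3 replicates, while 1.51% of all bases were. LMNB2 was not covered at its start in replicate 3, and NCL and HSP90AA1 were not covered in replicate 2. Throughout, the HSP90AA1 start is the outer bound of the gene, and another RefSeq start lies inside it. The gene ends were covered less widely: 2, 3 and 4 of 8 (mean 3 ± 1). CEP95 was the only one of the 8 whose end was covered in all 3 replicates, and the ends of HSP90AA1 and NFAT5 were covered in none. Starts and ends were not compared by a test, and the DDX5 and CEP95 starts are not independent positions. Without CEP95 the mean number of covered starts was 6 of 7. Here and below, the background for starts is all bases, which include DNA far from genes. The starts of other genes were not examined, so these counts do not set the 8 genes apart from other genes.

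Narrow summits were less regular than regions. A summit lay within 1 kb of the start of 7, 6 and 4 of the 8 genes (mean 5.67 ± 1.53), beside 14.0%, 4.19% and 10.7% of all bases. DDX5, HSP90AA1 and NFAT5 had such a summit in every replicate. NCL had none in any replicate, although an EPIC2 region covered its start in 2 of 3. The number depended on the distance allowed: a mean of 1.67 genes had a summit within 500 bases of the start and 6.67 within 2 kb.

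**Figure D1:**
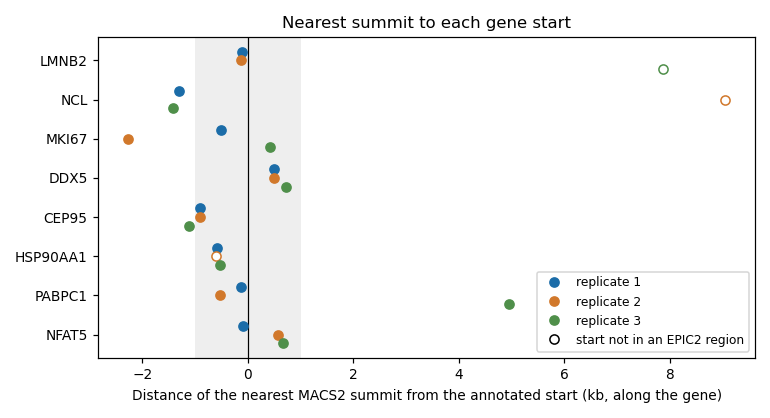
Distance in kb of the nearest MACS2 summit from the annotated start of each gene, counted along the gene, for replicates 1 (blue), 2 (orange) and 3 (green). Open circles mark a start that no EPIC2 region of that replicate covered, and the grey band spans 1 kb on each side. Most points fall in or near the band, and the exceptions are LMNB2 and PABPC1 in replicate 3, NCL, and MKI67 in replicate 2.

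Below, positions are counted in bases along each gene from its annotated start in hg19, with negative positions upstream. Scores are compared only as percentiles within a replicate, since the deposited EPIC2 score has no stated scale.

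Of all the starts, DDX5 and CEP95 share the one with the closest agreement of summits between replicates 1 and 2. The DDX5 start (17:62502484, minus strand) lay in an EPIC2 region of 4600, 4200 and 16400 bases in replicates 1, 2 and 3. The region's score ranked at the 99.7th, 94.8th and 99.3rd percentile of its replicate. The nearest summit was at position 504, 503 and 727 of DDX5, and the first 2 of these are 1 base apart. Its MACS2 score, the -log10 of the q-value, was 31.4, 21.7 and 8.25. It was also the highest score of the whole DDX5 interval in each replicate. Counted from the CEP95 start (17:62502880, plus strand), the same summits lie at -900, -899 and -1123, thus inside DDX5 rather than in CEP95. Merged over replicates, regions of all 3 formed a consensus origin of 16600 bases, from beyond the DDX5 end to 2720 bases into CEP95. Only the replicate 3 region ran across the whole of DDX5, and replicates 1 and 2 did not cover the gene's end.

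The study's CEP95#3 primer pair falls at a start of DDX5 rather than in CEP95. In RefSeq promoter sequence of GRCh38, which runs from 250 bases before to 50 bases after a start, DDX5 has 3 entries. The middle entry (chr17:64506240-64506539, minus strand) contains both CEP95#3 primers, shown in capitals because they mark the assayed bases. The forward primer matches the opposite strand from 31 to 47 bases after the start, and the reverse primer the gene's strand from -79 to -61.

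DDX5 promoter with CEP95#3 sites: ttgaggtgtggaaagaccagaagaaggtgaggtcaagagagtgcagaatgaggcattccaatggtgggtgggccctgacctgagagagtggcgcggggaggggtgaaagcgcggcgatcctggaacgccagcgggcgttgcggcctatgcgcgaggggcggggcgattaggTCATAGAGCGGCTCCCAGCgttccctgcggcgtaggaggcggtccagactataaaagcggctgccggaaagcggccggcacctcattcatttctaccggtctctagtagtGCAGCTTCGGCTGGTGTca

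The innermost DDX5 entry (chr17:64505888-64506187, minus strand) holds a stretch with 4 runs of GGG separated by 1 to 7 bases, shown in capitals. This pattern was searched on both strands because G-rich stretches of this kind are a frequent feature of mapped origins. It was found in 25% of the 35114 RefSeq promoters of the same length.

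DDX5 innermost promoter: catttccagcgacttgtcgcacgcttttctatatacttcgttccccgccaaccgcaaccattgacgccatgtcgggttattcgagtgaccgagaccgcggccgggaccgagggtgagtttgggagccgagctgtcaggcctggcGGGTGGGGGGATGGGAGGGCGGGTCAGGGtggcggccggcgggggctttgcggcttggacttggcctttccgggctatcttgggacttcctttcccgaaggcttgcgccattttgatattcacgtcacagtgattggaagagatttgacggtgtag

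Inside CEP95, replicates 1 and 3 had summits at 15275 and 15139, in a consensus origin between 8521 and 18520 that the calls of these 2 replicates supported. The nearest summit of replicate 2 was at 17723. Farther in, a consensus origin between 21721 and 25320 held summits of replicate 1 at 23388 and 23989 and of replicate 3 at 23612. The last of these, with a score of 12.5, was the highest of replicate 3 in the CEP95 interval and exceeded its own summit beside the gene start (8.25). Replicate 2 had a weak summit there too, at 23918 with a score of 1.27, but no region. Downstream of CEP95, further consensus origins lay at 34321 to 37920 and 39521 to 46720. Upstream of DDX5 the interval had the same CEP95 body origin, and downstream of it another between 15884 and 34283.

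HSP90AA1 had the most summits of replicate 1 with close partners in both other replicates. Of the 79 summits of replicate 1 in the intervals, 4 had a summit of both other replicates within 150 bases (5.06%, beside 1.83% of all replicate 1 summits), and 3 of those 4 were at HSP90AA1. Summits were denser in the intervals than over the genome, and the part of density in this share was not tested. The summit upstream of its start (14:102606086, minus strand) lay at -591, -598 and -533 in replicates 1, 2 and 3, a range of 65 bases. Its score was 10.6, 4.86 and 2.04, and the highest of these was only at the 86.0th percentile of its replicate. The next lay at 2098, 2074 and 2072, a range of 26 bases, with scores of 5.59, 2.88 and 4.87. The third lay past the gene end at 61161, 61225 and 61070, a range of 155 bases, and was the highest of the interval in replicates 1 (23.4) and 3 (6.84). In replicate 2 the highest was the summit at -598. These positions were repeatable although few were strong: in replicate 2 the scores ranked between the 39.7th and the 67.3rd percentile.

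HSP90AA1 has a pair of RefSeq starts, 52705 bases apart in GRCh38. The start used in all counts here is the outer bound of the gene, and the MANE Select transcript does not reach it. The pair HSP90#8, 51003 bases from the GENCODE gene start, lies in the gene but in no MANE transcript. The pair HSP90#7, 684 bases after the inner RefSeq start, crosses an edge of MANE exon 2. Counts at the HSP90AA1 start thus describe the outer start, and the inner start was treated as gene body. In the hg19 calls a further summit lay at 53112, 52435 and 52967 of the gene in replicates 1, 2 and 3, within a consensus origin of all 3 replicates from 38686 to 53685. The builds were not joined, so the calls were not assigned to the inner start. The outer promoter (chr14:102139700-102139999, minus strand) holds the pattern of 4 GGG runs, in capitals, between -39 and -15. The inner promoter has none, but the highest GC content of the entries (75.3%, at the 91.7th percentile of all promoters) and the most CpG dinucleotides (48).

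HSP90AA1 outer promoter: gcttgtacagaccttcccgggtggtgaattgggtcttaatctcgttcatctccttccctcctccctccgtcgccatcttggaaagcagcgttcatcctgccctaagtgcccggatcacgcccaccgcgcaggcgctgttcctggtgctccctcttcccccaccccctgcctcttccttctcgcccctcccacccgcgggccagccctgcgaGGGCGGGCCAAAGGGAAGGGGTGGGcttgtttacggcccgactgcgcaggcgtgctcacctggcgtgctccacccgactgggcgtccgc

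Of the 6 consensus origins at HSP90AA1, 3 were called in all replicates: the start (-1514 to 3685), the one from 38686 to 53685, and one past the gene end (59286 to 82685). The other 3, at -11914 to -2515, 5486 to 9085 and 30686 to 36885, rested on 2 replicates each. Replicate 2 did not cover the start itself, since its region there was 600 bases long and ended at -115. The study's HSP90#3 pair matched GRCh38 at chr14:102078403-102078546, outside any protein-coding gene and 2267 bases past the GENCODE gene end. In hg19 the summits beyond the gene lay 2150, 2214 and 2059 bases past its end. The pair HSP90#7 crossed an edge of exon 2 of the MANE Select transcript and HSP90#5 an edge of exon 10.

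HSP90#3 forward: tggtgtaggccacttcctga
HSP90#3 reverse: gccaggactctttcatctgc

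NFAT5, the longest gene, had a start with repeatable summits and a body full of calls. Summits lay at 584, 578 and 667 from its start (16:69599869, plus strand), the fourth place where a summit of replicate 1 had both others within 150 bases. Replicate 1 also had a summit at -86. The scores at the shared position were 39.5, 17.04 and 8.57, at the 99.8th, 94.1st and 92.8th percentile. The EPIC2 region at the start was short, with 1600, 2800 and 2200 bases, and a consensus origin of 3000 bases in all 3 replicates covered it. In replicate 3 the highest summit of the interval was instead past the gene end, at 139426 (9.99), and replicate 1 had one close by at 139516 (26.1). NFAT5 had 11 consensus origins, 7 of them within the gene, between 14332 and 123931, and 3 of the 11 were called in all replicates. Those were the start, the one at 30332 to 34731 and the one at 111732 to 123931. The others lay at -9068 to -2069, 14332 to 19931, 23132 to 27731, 36932 to 43131, 48932 to 52731, 62732 to 65931, 138732 to 143331 and 144932 to 148731. Between 65931 and 111732 no consensus origin was called, although every replicate had summits there. Replicate 2 had 7 of the 59 summits at NFAT5.

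**Figure D2:**
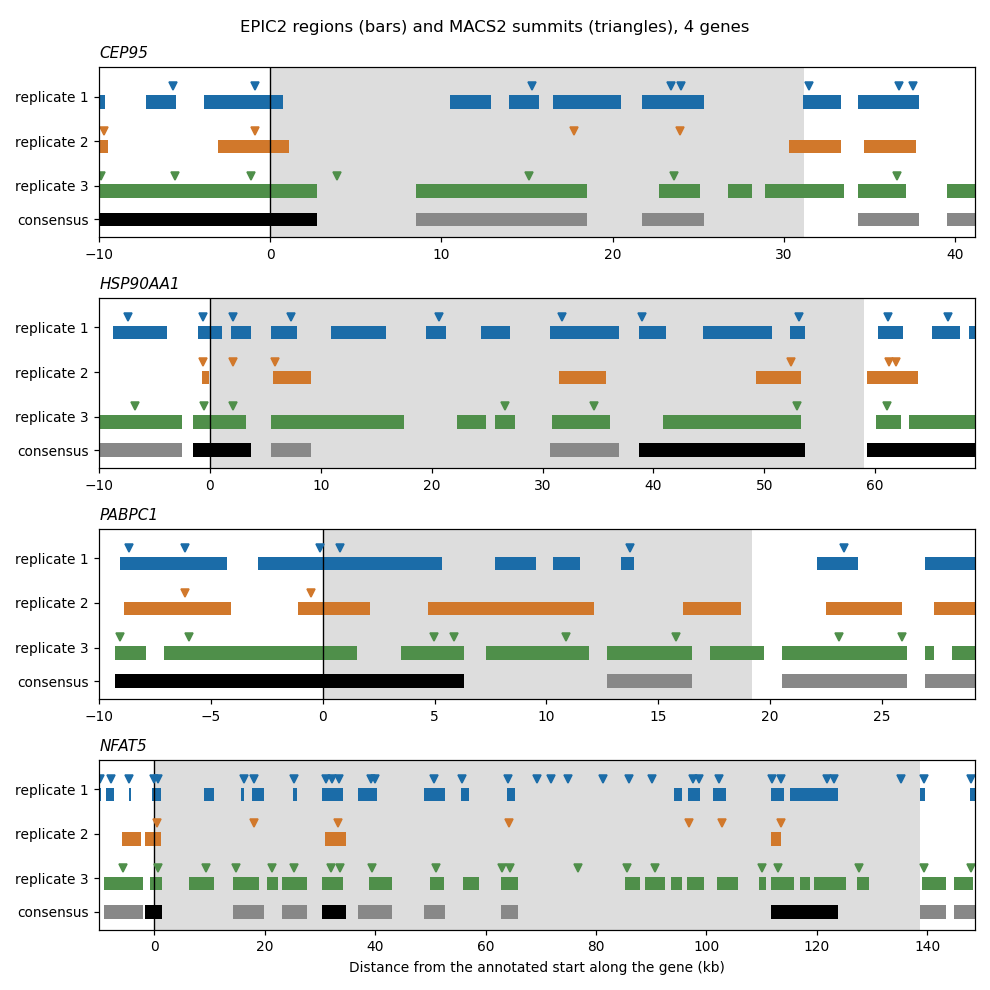
Calls at CEP95, HSP90AA1, PABPC1 and NFAT5 by distance in kb from the annotated start along the gene, 1 row per replicate, with EPIC2 regions as bars, MACS2 summits as triangles and the gene in grey. The lowest row gives consensus origins, black in all 3 replicates and grey in 2. The starts of CEP95, HSP90AA1, PABPC1 and NFAT5 all lie in black bars, and grey bars prevail in the gene bodies. The bars are merged over replicates, so a start in a black bar need not be covered in each.

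PABPC1 had the highest mean cover of the 8 genes. EPIC2 regions covered 52.7%, 59.4% and 78.3% of its interval in replicates 1, 2 and 3 (mean 63.5 ± 13.2%), and its start (8:101734315, minus strand) in each. The nearest summit was 123 and 521 bases upstream of the start in replicates 1 and 2, but 4960 bases downstream in replicate 3. Replicates 1 and 2 also had a summit at the same base, position -6144, and replicate 3 had one at -5991, just beyond 150 bases from them. A consensus origin of 15600 bases in all 3 replicates held the start and these upstream summits. The highest summit of the interval lay past the gene end at 23308 in replicate 1 (21.8), at -521 in replicate 2 (7.02), and at 5872, inside the gene and still within that consensus origin, in replicate 3 (16.6, at the 99.6th percentile). Further consensus origins, each of 2 replicates, lay at 12715 to 16514, 20515 to 26114 and 26915 to 37314.

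LMNB2 had calls at the start, in the body and around the 3' end. At its start (19:2456994, minus strand), replicates 1 and 2 had summits 106 and 124 bases upstream, with scores of 7.35 and 13.05. Replicate 3 had its nearest summit at 7873, and the region nearest to the start ended just upstream of it, at position -7. In the body, replicates 1 and 2 had summits at 22302 and 22340, with scores of 34.7 and 6.50, and replicate 3 one at 20806 with 3.26. The first of these was the highest of the interval in replicate 1.

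In the regions at the LMNB2 3' end no summit of 1 replicate had a summit of another within 150 bases. EPIC2 regions covered the end in replicates 1 and 3, from 24394 to 29993 and from 25194 to 30193. In replicate 2 the region there ran only from 25994 to 27393 and held no summit. The nearest summit to the end was 2360 bases before it in replicate 1, 3748 bases past it in replicate 2 and 452 bases before it in replicate 3. Before the end, replicate 1 had its summit at 26471 and replicate 3 another at 26064, and both positions fall in the replicate 2 region. The percentile of the nearest summit's score was 58.1, 78.6 and 11.4. Past the end, replicates 1 and 2 had summits close together at 32587 and 32579, and replicate 3 one at 34561, inside a consensus origin of all 3 replicates from 30994 to 37793. Consensus origins of all replicates also held the start (-1406 to 10793) and the upstream flank (-25606 to -2207). Those at 18994 to 22993 and at the gene end, 24394 to 30193, rested on 2 replicates.

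The LMNB2 primers are shown because of where they lie relative to the 3' end. In GRCh38 the pair named LMNB2_Ori matched chr19:2432044-2432118, in an intron and 4444 bases before the GENCODE gene end. The pair named LMNB2_Neg matched chr19:2428130-2428197, across an edge of exon 12 of the MANE Select transcript, in its untranslated part and 526 bases before that end. The pair named Neg thus lies closer to the 3' end, near which the classical origin has been mapped, than the pair named Ori. Whether the names stand the right way round in the study's list was not settled here, and they are printed as given. Which calls the pairs amplify was not tested, because the calls are in hg19.

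LMNB2_Ori forward: atggtccccaggatacacaa
LMNB2_Ori reverse: cagttcagcccctgcttg
LMNB2_Neg forward: gagcttcccctcaggaataaac
LMNB2_Neg reverse: tgtacaacactccaataaacattttg

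NCL and MKI67 had calls at the start that differed between replicates. At NCL (start 2:232329205, minus strand), replicates 1 and 3 had summits 1297 and 1416 bases upstream, in regions of 9200 and 10000 bases that covered the start. Replicate 2 had a region from -7995 to -3996, without a summit, and its only NCL summit at 9052, near the gene end. Replicate 1 had a summit close to that one, at 8930. The NCL consensus origins (-9995 to 5204, 7405 to 11604 and 13405 to 24204) each rested on 2 replicates. In GRCh38 the centre of the NCL_Ori amplicon lay at -2380 from the RefSeq start, within the outer bounds of the GENCODE gene, and the NCL_Neg pair 2381 bases downstream of it, in an intron.

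NCL_Ori forward: catcagcacatgtagagctgc
NCL_Ori reverse: ccctaactatccagcaatggtg

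At MKI67 (start 10:129924655, minus strand) a region of 2400, 2000 and 1800 bases covered the start in replicates 1, 2 and 3. The nearest summit was at -501, -2266 and 429. Replicate 3 had another at -2280, close to that of replicate 2, and it was the highest of replicate 3 at the gene (11.3, at the 97.6th percentile). In replicate 1 the highest was the summit at -501 (16.0). All 4 MKI67 consensus origins rested on 2 replicates: -18345 to -8146, -7345 to -1946, -1145 to 1654 and 5455 to 10854. Replicate 2 had wide regions in the 3' part of the gene, from 10855 on, without a summit. The MKI67_Ori pair matched chr10:128126144-128126267 in GRCh38, in the untranslated part of exon 1 and 218 bases after the RefSeq start. The MKI67_Neg pair lay 3851 bases after it, in an intron.

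MKI67_Ori forward: tcaagtcgcacccaaagtcc
MKI67_Ori reverse: ggtgcagcgaacgcga

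The MKI67 promoter (chr10:128126374-128126673, minus strand) was the only member entry with the pattern of 4 runs on both strands: runs of CCC upstream of the start and of GGG after it. They are shown in capitals.

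MKI67 promoter: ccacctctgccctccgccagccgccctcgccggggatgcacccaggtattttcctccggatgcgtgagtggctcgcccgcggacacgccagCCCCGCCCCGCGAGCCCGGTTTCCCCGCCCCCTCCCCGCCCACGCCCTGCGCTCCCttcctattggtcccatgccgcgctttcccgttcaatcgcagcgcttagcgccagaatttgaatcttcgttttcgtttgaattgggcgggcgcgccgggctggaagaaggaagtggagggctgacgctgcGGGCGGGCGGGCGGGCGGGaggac

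RefSeq promoters were matched for 6 of the 8 genes, with 9 entries, and PABPC1 and NFAT5 were not matched. All 9 were above the median of all promoters in GC content (60.0 to 75.3%, median of all 58.7%) and in CpG dinucleotides (23 to 48, median of all 14). The 3 DDX5 entries and the CEP95 entry were close to the median in GC content, at the 54.1st to 58.6th percentile. The CEP95 window overlaps that of the outermost DDX5 entry, so the 9 are not independent. The pattern of 4 runs was in 3 of the 9, beside 25% of all promoters. LMNB2, NCL and CEP95 had none in their entries. The CEP95 start shares its EPIC2 region with DDX5, whose innermost entry has the pattern. Whether the pattern bears on the calls was not tested. These letters describe the window only, and binding of any factor was not measured.

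**Figure D3:**
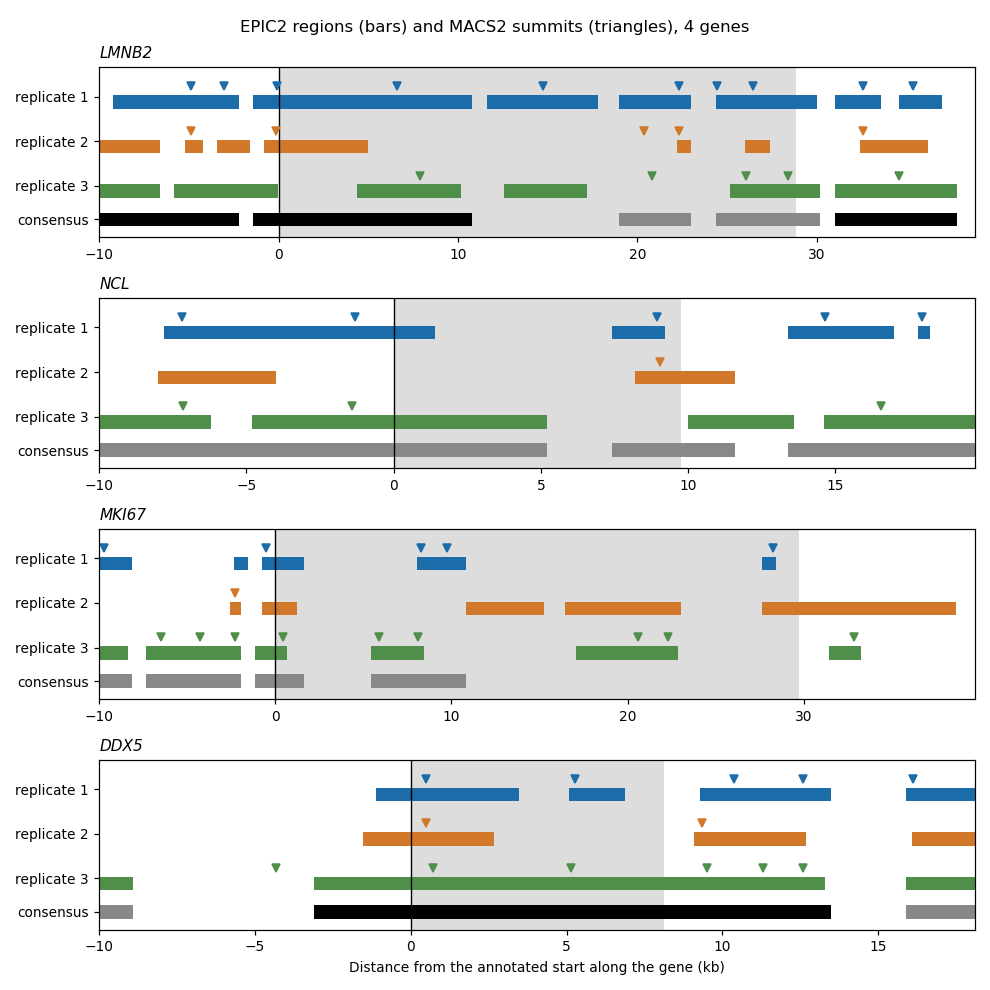
Calls at LMNB2, NCL, MKI67 and DDX5, drawn as for the other genes: distance in kb from the annotated start, bars for EPIC2 regions, triangles for MACS2 summits, grey for the gene, and consensus origins in the lowest row (black in all 3 replicates, grey in 2). LMNB2 and DDX5 have black bars at the start, whereas NCL and MKI67 have only grey bars. The bars are merged over replicates, so their shade does not tell how many replicates covered the start itself.

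A consensus origin was defined, after the study's methods, as a place called by EPIC2 and MACS2 together in at least 2 of 3 replicates. Here it was an EPIC2 region with a summit of its own replicate, merged over replicates. The genome had 42072 of these, 19.1% of them in all 3 replicates. The study reported a lower number of origins for the same cells, so these are not its origin set. The gene intervals held 39 consensus origins as defined here, and 11 (28.2%) were in all 3. Their median width was 5800 bases, with a range of 2800 to 23400, beside 4000 bases in the genome. By gene there were 5 at LMNB2, 3 at NCL, 4 at MKI67, 3 at DDX5, 5 at CEP95, 6 at HSP90AA1, 4 at PABPC1 and 11 at NFAT5, where DDX5 and CEP95 share 2. Of all tiles as long as the interval of the gene, 1.94% held at least as many as LMNB2, 5.05% as NCL, 5.78% as MKI67 and 4.51% as DDX5. For CEP95, HSP90AA1, PABPC1 and NFAT5 these shares were 2.31%, 4.40%, 3.09% and 3.57%. The start of each of the 8 genes was in a consensus origin, which hold 7.71% of all bases. Of these starts, 6 were in one of all 3 replicates. The share of all bases in consensus origins of all 3 replicates is not given here, so this count stands without a background. Merging lets such an origin hold a start that a replicate did not cover, as at LMNB2 and HSP90AA1. The MKI67 start was covered by EPIC2 regions in all 3 replicates, although its consensus origin rested on 2. The ends of LMNB2, NCL and DDX5 were in one. Replicate 1 took part in 38 of the 39, replicate 3 in 36 and replicate 2 in 15. Thus 24 rested on replicates 1 and 3 alone. Requiring all 3 replicates left 11. Without replicate 1 or replicate 3, with both remaining replicates required, there were 12 and 16.

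The intervals were rich in calls, and so were their surroundings. EPIC2 regions covered 42.7%, 25.3% and 60.0% of the intervals in replicates 1, 2 and 3 (mean 42.7 ± 17.4%). In each replicate all 8 genes were above the mean of tiles of their length. The percent of tiles with at least the cover of the gene, as a median over genes, was 3.98, 3.97 and 2.54 (mean 3.49 ± 0.830). Within tiles of the same chromosome this mean was 12.0, and within 5 Mb of the gene 22.4. Summits numbered 1.70, 0.559 and 1.31 per 10 kb (mean 1.19 ± 0.580), against 0.740, 0.213 and 0.550 over the genome. Copy number was not measured, and its part in these values was not tested.

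The genes differed in how far they stood above their neighbourhood. NCL had a mean cover of 50.4 ± 25.5%, and tiles within 5 Mb of it 10.7%. PABPC1 (63.5% against 25.4%) and HSP90AA1 (47.8 ± 24.3% against 19.0%) were also well above. LMNB2 (61.0 ± 22.7%), DDX5 (50.2 ± 18.0%) and CEP95 (46.0 ± 24.3%) had neighbourhoods of 50.8%, 42.1% and 42.0%. MKI67 had 35.3 ± 16.4% against 19.2%, and NFAT5 27.9 ± 21.3% against 16.8%. These SDs are over replicates that differed in how much was called. They do not measure the difference between a gene and its neighbourhood within a replicate. The cover was above the 5 Mb mean in all 8 genes in replicates 1 and 3, and in 7 in replicate 2, where CEP95 had 20.9% against 30.5%. In order of mean cover the genes ran from PABPC1 and LMNB2 through NCL, DDX5, HSP90AA1 and CEP95 to MKI67 and NFAT5, and no neighbours in this order differed by more than their SD. At the extremes, the values of PABPC1 (52.7 to 78.3%) and NFAT5 (7.44 to 49.9%) did not overlap, but this pair was picked as the ends of the order. Flanks of fixed length make up more of the short PABPC1 interval than of the long NFAT5 interval. Flanks had more cover than genes, and its part in this gap was not tested.

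**Figure D4:**
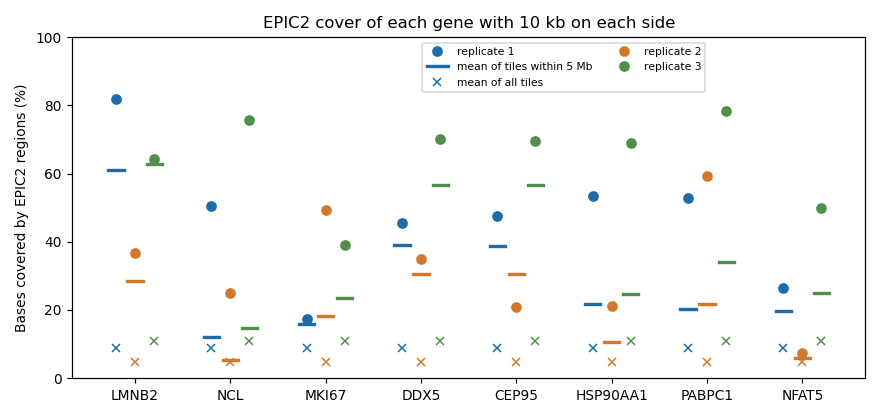
Percent of bases covered by EPIC2 regions in each gene with 10 kb on each side, for replicates 1 (blue), 2 (orange) and 3 (green) as circles. Short lines give the mean of tiles within 5 Mb and crosses the mean of all tiles of that length, in the colour of the replicate. The circles lie above the crosses throughout, and the distance from circle to line varies, with CEP95 in replicate 2 the only circle below its line.

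Over all genes together, summits were denser in the flanks than inside gene bounds, but not in every gene. Inside gene bounds there were 1.48, 0.493 and 1.20 summits per 10 kb, and in the flanks 2.21, 0.712 and 1.57. The ratio was 0.670, 0.692 and 0.767 (mean 0.710 ± 0.0508), below 1 in each replicate. EPIC2 cover was 39.8%, 17.9% and 52.8% inside and 49.6%, 42.4% and 76.9% in the flanks. Set against its own flanks, with bases of the other genes left out, the gene was the less dense side in 7, 5 and 6 of the 8 genes in replicates 1, 2 and 3. CEP95 and HSP90AA1 were less dense inside in every replicate, and each of the other 6 genes was denser inside in 1 replicate. The margin was small at MKI67 in replicate 1 (1.01 against 1.0 per 10 kb) and at PABPC1 in replicate 3 (2.09 against 2.0). It was larger at LMNB2 in replicate 3 (1.39 against 0.5), and at NCL (1.03) and NFAT5 (0.505) in replicate 2 the flanks had 0. With so few summits per gene, these directions are weak. DDX5 had the densest gene body in each replicate, with 2.47, 1.23 and 2.47 summits per 10 kb over its 8111 bases, beside 2.89, 0.962 and 2.89 in its flanks. It is the shortest gene, and its rank rests on few summits. They lay at 504 and 5286 in replicate 1, at 503 in replicate 2, and at 727 and 5156 in replicate 3. NFAT5 makes up much of the gene length, with 1.87, 0.505 and 1.23 per 10 kb inside, and without it the mean ratio was 0.635.

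Summits of different replicates coincided somewhat more often here than over the genome. Within 150 bases, 57.7% of the 26 summits of replicate 2 had a summit of replicate 1 (44.3% of all replicate 2 summits), and 19.2% one of replicate 3 (10.6%). Of the 79 summits of replicate 1, 19.0% had one of replicate 2 (12.8%) and 17.7% one of replicate 3 (12.4%). Of the 61 of replicate 3, 23.0% had one of replicate 1 (16.7%) and 8.20% one of replicate 2 (4.10%). All 6 directed shares were above those of all summits, with a mean of 24.1% against 16.8%. They come from the same 3 lists, and the difference was not tested. Summits were also denser in the intervals than over the genome, and the part of density in these matches was not tested. The mean was 13.7% without replicate 1 (7.33% of all summits) and 38.3% without replicate 3 (28.5%). Within 50 bases it was 13.6% (8.10%), and within 500 bases 40.1% (26.6%). Summits of the intervals also lay more often in an EPIC2 region of their own replicate: 91.1%, 69.2% and 95.1%, against 57.5%, 44.2% and 43.7% of all summits. EPIC2 cover itself was higher in the intervals, and its part in that difference was not tested. Replicates 1 and 2 had 6 summits within 10 bases of each other, among them those at DDX5, NFAT5 and HSP90AA1. Over the genome such pairs took in 2.52% of the summits of replicate 1 and 8.74% of those of replicate 2.

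**Figure D5:**
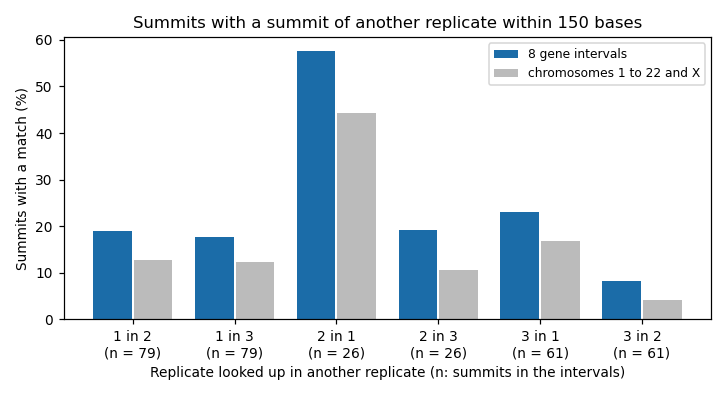
Percent of the MACS2 summits of 1 replicate with a summit of another replicate within 150 bases, for the 8 gene intervals (blue, n under each pair) and for chromosomes 1 to 22 and X (grey). The blue bar is the higher one in each of the 6 pairs, and replicate 2 looked up in replicate 1 gives the highest, 57.7%.

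The regions at the starts ranked high within their replicate. The median score percentile of the EPIC2 regions that covered a start was 98.2, 94.7 and 90.8 (n = 8, 6 and 7), while all regions of the intervals had medians of 79.7, 62.2 and 79.9. Summits of the intervals were closer to the middle of their replicate, at 68.3, 57.4 and 53.8. MKI67 was lowest at its start in replicate 2, at the 64.0th percentile, and DDX5 with CEP95 highest in replicate 1. DDX5 and CEP95 share the region, so it counts for both genes in these medians. A wide region is more likely to cover a given base, and the part of region width in these ranks was not tested.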

How the data were processed

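SNS-seq origin calls of 3 replicates of untreated HCT116 were analysed. Per the methods and processing notes, hg19 was the build, and the authors used Bowtie2 2.3.4.2 for alignment, removed duplicates with Picard 2.18.17, and called each replicate separately with MACS2 2.1.0.20151222 at a q-value of 0.1 and with EPIC2. The deposited EPIC2 lists hold regions with a score of unstated kind. The deposited MACS2 lists hold summits with the -log10 of the q-value. The lists hold calls and not reads, so depth is unknown and no interval for counting error was given, and which control library served the callers is not stated.

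Positions were compared in hg19 with Python 3.11.15 and numpy 2.4.6. Background tiles of each interval's length were laid end to end between the first and last call of chromosomes 1 to 22 and X. The reference genome and GENCODE and RefSeq tables are GRCh38, so primers (21 pairs, each with 1 exact match) and promoters were placed in that build only. Interval functions were tested on simulated data. The genes and lists were chosen with earlier results of these data known. The rule named all 8 genes and, in each, the summit nearest the start, the highest summit and every consensus origin, and other summits named were chosen after their values were seen. Alternatives were the flank, summit and region thresholds, distances, overlap, replicates required and leaving out a replicate.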

Additional observations from a re-analysis of the deposited data

How the results depend on the processing

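Of 59 values recomputed under alternatives for all genes together, 47 stayed within the tolerance, which was 1.5 times for counts and 1 SD between replicates otherwise, and 12 did not. Consensus origins in the intervals numbered 39, but 11 when all 3 replicates were required, 19 with a reciprocal overlap of 50% and 24 with a flank of 0 kb. Leaving out a replicate, with both remaining ones required, gave 12 to 36. Starts with a summit within 1 kb fell from a mean of 5.67 to 1.67 within 500 bases, and leaving out a replicate gave 5.0 to 6.5. The median percent of tiles with at least the cover of a gene was 3.49, but 12.0 among tiles of the same chromosome and 22.4 among those within 5 Mb. The ratio of summit density inside genes to flanks was 0.710, and 0.589 with flanks of 5 kb, 0.811 with 25 kb, 0.656 with summit scores of at least 2 and 0.635 without NFAT5, always below 1. The causes were not tested. For consensus origins of single genes, 28 of 64 values moved beyond 1.5 times, and each was lower. Apart from widened summits, these alternatives were stricter than the main setting, so that direction was largely set by their choice. The same-chromosome and 5 Mb tiles, the limit on EPIC2 scores and leaving out CEP95 or NFAT5 were chosen after seeing the data. No paired analysis of groups was possible because there is only 1 group, and comparisons made within a replicate were not tested.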

Other observations

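EPIC2 scores were unevenly spread near 1000. Replicates 1, 2 and 3 had 912, 561 and 61 regions with a score of at least 1000, but only 7, 0 and 13 between 900 and 1000, and 426, 365 and 16 between 1000 and 1100. In the gene intervals 4 of the 67 regions of replicate 1 (5.97%) had such scores, and none in the other replicates. These were the start region of DDX5 and CEP95 (1162), the start region of NFAT5 (1114), the body region of LMNB2 from 18994 to 22993 (1092) and the region past the end of HSP90AA1 (1076). Each held a summit with a score between 23.4 and 39.5, and in 0.733% of all regions of replicate 1 the score was this high. The origin of the gap was not tested. Without regions of at least 1000, the mean cover of the intervals was 41.8%, against 42.7% with them.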
